A study of Mus musculus with 24 samples.

Results

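The genes described here encode the proteins of the cytosolic ribosome in the mouse. They were chosen by gene symbol, as Rpl or Rps followed by a number and at most 1 of the letters a, l or x, together with Rplp0, Rplp1, Rplp2 and Rpsa, and measured values played no part in the choice. The rule found 81 genes, 49 of the large and 32 of the small subunit. They are 80 of the 21860 genes listed for pericytes of embryonic day E11.5, 81 of 23792 for pericytes of E13.5 and 81 of 20523 for endothelial cells of E13.5. The genes Rpl32l, Rpl6l and Rps4l, which the rule also takes, are annotated as pseudogenes.

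RNA was sequenced in bulk from cells that flow cytometry had sorted out of embryonic mouse brains, in 24 samples. Control embryos were Pdgfrb-Cre, Alk5(flox/+), Zs/+ and mutants were Pdgfrb-Cre, Alk5(flox/flox), Zs/+, and the labels mark the mutants with GMH-IVH. All groups thus carried the Cre driver, the ZsGreen reporter and at least 1 floxed copy of Alk5, now named Tgfbr1, which encodes a type I receptor for TGF-beta. Pericytes, which the labels also class as mesenchymal cells, came from 4 control and 4 mutant samples at each of E11.5 and E13.5, and endothelial cells came from 5 control and 3 mutant samples at E13.5. Pdgfrb is expressed in pericytes and in other mural and mesenchymal cells, so the driver is not specific to pericytes.

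Each ribosome joins a large and a small subunit. The small subunit reads the messenger RNA and the large subunit forms the peptide bond and passes the growing chain through an exit tunnel. Cells make the ribosomal proteins in matched amounts, and their messenger RNAs are short, abundant and start with a run of pyrimidines, the terminal oligopyrimidine or TOP motif, through which mTOR signalling controls their translation. Growing and dividing cells devote much of their transcription to these genes.

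The values are the authors' means of normalized reads per group, so values of single samples were not used here and overlap between groups could not be read. The ratio of mutant to control for Tgfbr1 in the authors' deposited tables was 1.34 in E11.5 pericytes, 1.02 in E13.5 pericytes and 0.929 in endothelial cells, with adjusted p of 0.399, 1.00 and 0.859. These are means over the whole gene, while a floxed allele loses only a part of it, and they do not check the labels. In control pericytes the listed pericyte markers summed to 19645 at E11.5 and 38709 at E13.5. The listed fibroblast and meninges markers summed to 84313 and 273544 in the same groups. Such sums depend on the genes listed, and the cell types behind them were not tested. In the endothelial sort all 19 listed endothelial markers had group means of at least 741. Their summed level was 214227 in controls and 183062 in mutants. The 14 red cell markers summed to 69119 in controls and 1721820 in mutants, or 0.328% and 7.49% of all summed means, and 10 of them passed as higher and 1 as lower. The 15 myeloid markers summed to 15643 and 26632, and 3 of them passed as higher. The part of these cells in the endothelial results was not tested, apart from the scaling without red cell markers that is given beside them. In bulk samples a change in the share of a cell type and a change in RNA per cell cannot be told apart.

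In endothelial cells of E13.5, ribosomal protein genes were higher in mutants across both subunits. Of the 79 with an adjusted p, 60 passed as higher at an adjusted p under 0.05 and 0 as lower, where 5.11% of all 18132 tested genes passed as higher, 2.19% as lower and 7.3% in either direction. The median log2 ratio of mutant to control was 0.52 over the 79 genes and -0.01 over all tested genes, and 78 of the 79 ratios were above 0. The summed level of the 81 genes was 190506 in controls and 266119 in mutants, or 0.904% and 1.16% of all summed means. When the summed means of both groups were set equal, which lowers every log2 ratio by 0.13, 41 genes passed and the median was 0.39. With the red cell markers left out of those sums the shift was 0.018 and 57 genes passed. The spread behind the authors' p weighed more. A further setting divided the test statistics by 1.48, so that their median absolute value matched that of a standard normal. It takes most genes as unchanged, which was not tested. With this setting 7 of the ribosomal protein genes passed (Rplp1, Rpl39, Rps15a, Rpl41, Rpl21, Rplp2 and Rps26), among 49 genes in all.

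**Figure D1:**
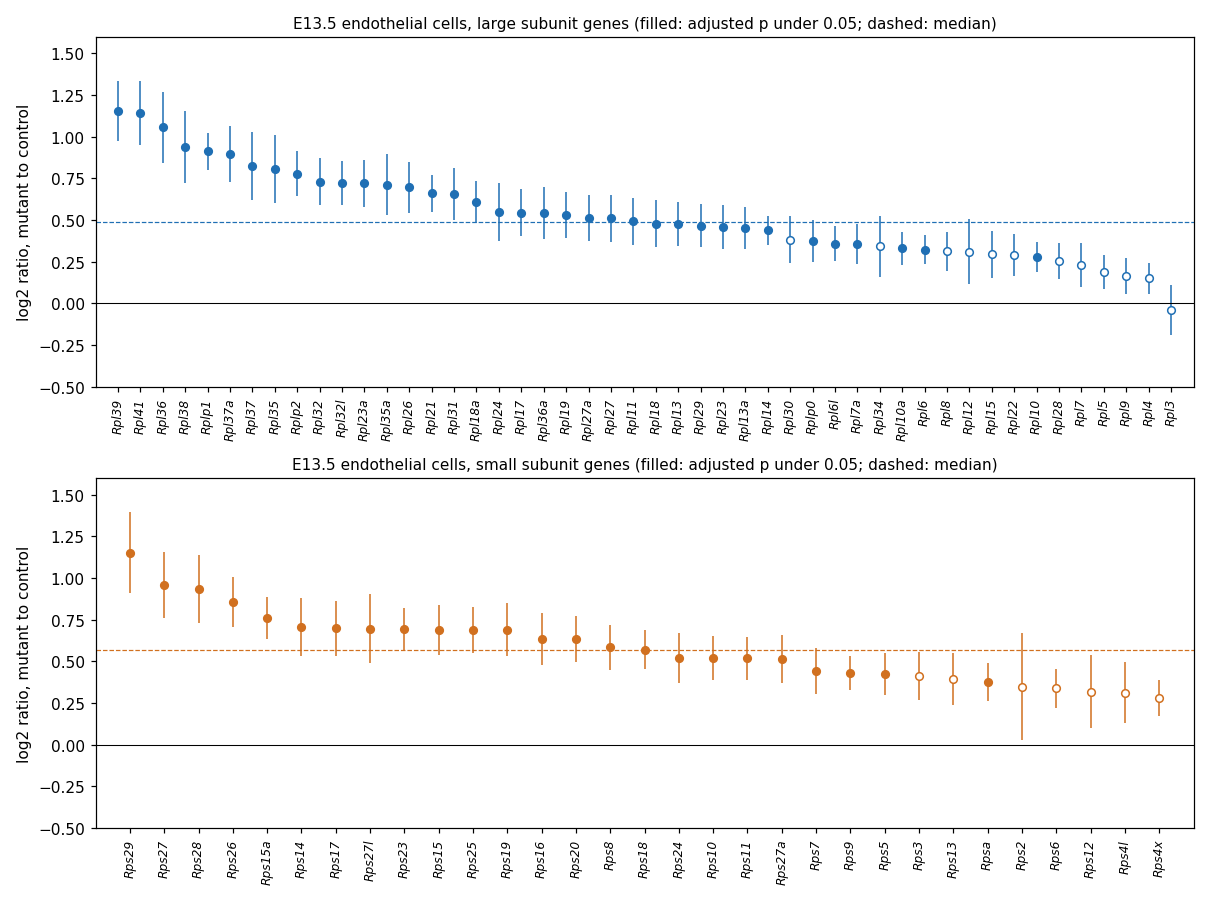
The log2 ratio of mutant to control in E13.5 endothelial cells is plotted for each of the 79 ribosomal protein genes with an adjusted p, with its SE, large subunit above and small subunit below. Filled points are the 60 genes with an adjusted p under 0.05, dashed lines are the medians of 0.49 and 0.57, and only Rpl3 lies below 0.

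The plot of endothelial ratios by gene runs from log2 ratios of 1.16 and 1.15 at the top of each subunit down to 0.15 for Rpl4, with Rpl3 set apart below it. Each standard error (SE) given here was worked out from the authors' two-sided p and ratio. At the top by p stood Rplp1, which encodes a protein of the flexible acidic stalk that recruits elongation factors (chr9:61913284-61914542 of GRCm38, minus strand). Its mean was 2824 in controls and 5318 in mutants per the authors' deposited table, a 1.88-fold difference at a log2 ratio of 0.91 (SE 0.11, adjusted p = 1.5e-12). Rpl39, an X-linked gene for a small protein in the wall of the exit tunnel (chrX:37082520-37085402, minus strand), had means of 448 and 998 per the authors' deposited table, a log2 ratio of 1.16 (SE 0.18, adjusted p = 1.5e-07). For both genes the mutant mean was at least 1.88 times the control mean.

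Rps15a, a small subunit gene (chr7:118104372-118116188, minus strand), had means of 873 and 1479 per the authors' deposited table, a log2 ratio of 0.76 (SE 0.12, adjusted p = 5.9e-07). Rpl41, which encodes the shortest ribosomal protein (chr10:128548114-128549305, minus strand), had means of 6790 and 14993 per the authors' deposited table, a log2 ratio of 1.14 (SE 0.19, adjusted p = 1.1e-06). Rpl21, of the large subunit (chr5:146832890-146837032, plus strand), had means of 1099 and 1738 per the authors' deposited table, a log2 ratio of 0.66 (SE 0.11, adjusted p = 1.4e-06). These 5 genes, the ones with the smallest p, span low and high levels. The highest ratio of the small subunit belonged to Rps29 (chr12:69157722-69159186, minus strand), with means of 116 and 259 and a log2 ratio of 1.15 (SE 0.24, adjusted p = 0.0002) per the authors' deposited table.

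At the other end, Rpl3, a large core protein near the peptidyl transferase centre (chr15:80077791-80091868, minus strand), was the single tested gene with a ratio under 1. The authors' deposited table gives it means of 5168 and 5030, a log2 ratio of -0.04 (SE 0.15, adjusted p = 0.92). Among tested small subunit genes the lowest ratio was that of Rps4x, with means of 3681 and 4472 and a log2 ratio of 0.28 (SE 0.11, adjusted p = 0.085) per the authors' deposited table. The 19 tested genes that did not pass were Rpl3, Rpl4, Rpl5, Rpl7, Rpl8, Rpl9, Rpl12, Rpl15, Rpl22, Rpl28, Rpl30, Rpl34, Rps2, Rps3, Rps4l, Rps4x, Rps6, Rps12 and Rps13. Just inside the threshold lay Rplp0, with an adjusted p of 0.048, and just outside it Rps6, with 0.0509, per the authors' deposited table. Rpl39l and Rps21 had endothelial means of 10.9 and 10.4 in controls and 20.6 and 11.9 in mutants per the authors' deposited table, with no adjusted p.

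Groups of proteins with a shared place or role were formed after the values had been seen, and their counts describe and test nothing. The groups are partial lists picked by hand. Their counts are to be read beside the 60 of all 79 tested ribosomal protein genes (75.9%) that passed as higher. In endothelial cells 3 of 3 genes of the acidic stalk were higher in mutants (Rplp0, Rplp1 and Rplp2), with a median log2 ratio of 0.78. Around the mouth of the exit tunnel 8 of 8 listed genes passed (Rpl17, Rpl19, Rpl23a, Rpl26, Rpl31, Rpl35, Rpl38 and Rpl39), with a median of 0.71. Rpl4, which reaches into the tunnel, and Rpl22 were not on this list and did not pass, with log2 ratios of 0.15 and 0.29. In Diamond-Blackfan anaemia, an inherited failure to form red cells, human ribosomal protein genes are mutated. Of 16 genes listed here for it, not a complete set, 14 passed, with a median of 0.67. The exceptions among these 16 were Rpl5 and Rpl15, with log2 ratios of 0.19 and 0.30. Rpl5 and Rpl11 bind 5S ribosomal RNA together and, when free, inhibit Mdm2. Of this pair Rpl11 passed, with means of 603 and 849 per the authors' deposited table (log2 ratio 0.49, SE 0.14, adjusted p = 0.013), while Rpl5 had means of 2903 and 3308 (log2 ratio 0.19, SE 0.10, adjusted p = 0.3).

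Rps2 and Rps3 line the channel where messenger RNA enters the small subunit, and 0 of these 2 passed. Rps2 had a log2 ratio of 0.35 with the widest SE of the tested small subunit genes, 0.32, per the authors' deposited table. Rps3 had means of 7776 and 10336 (log2 ratio 0.41, SE 0.14, adjusted p = 0.056) per the authors' deposited table, and it passed when the median of all genes was set to 0 (adjusted p = 0.047). Rps27a, which is made as a fusion with ubiquitin, passed at a log2 ratio of 0.51 (SE 0.15, adjusted p = 0.011) per the authors' deposited table.

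The messenger RNA starts of 59 of the 81 genes could be matched to RefSeq promoters of GRCm38.p6. The windows below run from 45 bases before to the first 15 bases of the transcript and belong to the 4 matched genes with the smallest endothelial p (Rpl39, Rps15a, Rpl41, Rplp2) and the 4 with the largest (Rps2, Rps12, Rpl9, Rpl12). They are shown to let runs of pyrimidines near the annotated start be seen. Capitals mark only the first run of 8 or more C or T letters that begins with a C and ends within the window. The search used the strand of the transcript only. The marked run may lie before the annotated start, as in Rpl39 and Rps15a. The windows of these genes also hold a later run of this kind, left in lower case: cttcttct within the transcript of Rpl39, and cttccctc from the first transcript base of Rps15a.
Rpl39: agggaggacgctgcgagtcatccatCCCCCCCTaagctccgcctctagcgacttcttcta
Rps15a: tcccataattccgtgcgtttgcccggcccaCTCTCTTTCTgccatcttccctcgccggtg
Rpl41: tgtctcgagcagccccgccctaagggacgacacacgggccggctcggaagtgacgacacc
Rplp2: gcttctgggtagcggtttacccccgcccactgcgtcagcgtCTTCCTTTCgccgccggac
Rps2: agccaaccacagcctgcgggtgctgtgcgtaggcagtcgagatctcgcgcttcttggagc
Rps12: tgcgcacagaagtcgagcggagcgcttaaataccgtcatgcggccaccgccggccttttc
Rpl9: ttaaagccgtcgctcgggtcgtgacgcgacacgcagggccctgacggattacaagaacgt
Rpl12: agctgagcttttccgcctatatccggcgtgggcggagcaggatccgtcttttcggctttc
The windows lie at chrX:37085208-37085267, chr7:118116133-118116192 and chr10:128549154-128549213 on the minus strand and chr7:141447606-141447665 on the plus strand for the first 4 genes. Those of Rps2 (chr17:24720018-24720077) and Rpl12 (chr2:32961667-32961726) are on the plus strand, and those of Rps12 (chr10:23787195-23787254) and Rpl9 (chr5:65391417-65391476) on the minus strand. A run was found for 3 of the 4 genes with the smallest p and for 0 of the 4 with the largest, where a run that crosses the edge of the window is not seen.

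Over all matched genes the endothelial calls were similar with and without such a run. In this window 32 of 59 ribosomal protein genes held one (54.2%), where 19.4% of all 27025 genes with a promoter did. Of the 31 matched and tested genes with a run, 24 passed as higher in endothelial cells, with a median log2 ratio of 0.51, and of the 26 without one 19 passed, with a median of 0.47. Within 50 bases on either side of the start, 49 of 59 genes held a run (83.1%), where 28.7% of all genes did. There 36 of 47 tested genes with a run passed, with a median log2 ratio of 0.52, and 7 of 10 without, with a median of 0.40.

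In pericytes of E13.5, 0 of 81 ribosomal protein genes passed the test of the authors' DESeq2 fit, and 1 had an unadjusted p under 0.05. Over all 20084 tested genes 0.388% passed and 4.06% had an unadjusted p under 0.05. The median log2 ratio was -0.05, against 0.00 over all genes, and 72 of the 81 ratios were under 0 (59 of 81 and a median of -0.026 with the summed means set equal). Rps15a, with means of 2412 in controls and 2166 in mutants, had the smallest p (log2 ratio -0.16, SE 0.06, unadjusted p = 0.0052, adjusted p = 0.5) per the authors' deposited table. Its ratio lay on the other side of 1 from the endothelial one. The highest ratio of the large subunit was that of Rpl15, with a log2 ratio of 0.018, and the lowest that of Rpl39l, with -0.43 (SE 0.31) at means of 71.2 and 52.9 per the authors' deposited table. Xist, the RNA of the inactive X chromosome, had means of 36145 in controls and 5.73 in mutants per the authors' deposited table for these pericytes, so sex and genotype cannot be told apart there. The 4 X-linked genes Rpl10, Rpl36a, Rpl39 and Rps4x had a median of -0.07 on the log2 scale in these pericytes.

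In pericytes of E11.5, 0 of 80 ribosomal protein genes passed in the authors' DESeq2 fit and 0 had an unadjusted p under 0.05. Of all 19301 tested genes 3.35% passed there, 0.642% as higher and 2.7% as lower, and 17.7% had an unadjusted p under 0.05. The median log2 ratio was 0.06, with 59 of 80 ratios above 0 (48 of 80 and a median of 0.012 with the summed means set equal), and the range ran from -0.27 for Rps12 to 0.60 for Rps21. Rps21 had means of 8.39 and 12.7 per the authors' deposited table, a log2 ratio of 0.60 with an SE of 0.54. The range in the large subunit was narrower, from -0.21 for Rpl34 to 0.23 for Rpl3. In the same samples 4 of 15 myeloid, 4 of 13 fibroblast and 5 of 19 pericyte markers passed as lower in mutants. Of 14 tested endothelial markers 1 (Erg) passed as lower, with 13 log2 ratios under 0 and a median of -0.80. Among these lists 1 fibroblast marker (Crabp2) and 1 pericyte marker (Des) passed as higher. The part of these markers' cell types in the values of the ribosomal protein genes was not tested.

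**Figure D2:**
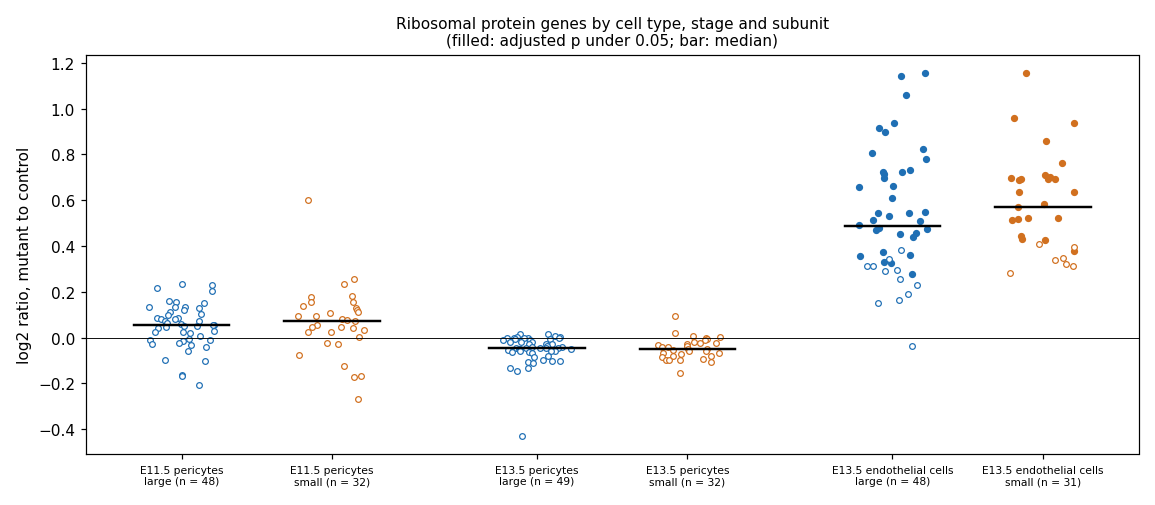
Each point is the log2 ratio of mutant to control of 1 ribosomal protein gene, by cell type and stage and by subunit, with filled points for an adjusted p under 0.05 and bars at the medians. The medians are 0.05 and 0.07 in E11.5 pericytes, -0.05 and -0.05 in E13.5 pericytes and 0.49 and 0.57 in E13.5 endothelial cells, for large and small subunit.

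The plot of ratios by cell type and stage shows the 2 subunits side by side, and their medians lay close together in each. In endothelial cells 36 of 48 tested large subunit genes (75%) and 24 of 31 tested small subunit genes (77.4%) passed as higher. Their median log2 ratios were 0.49 and 0.57, and the summed levels stood at 1.38 and 1.43 times those of controls. The subunits also had similar transcript lengths, with a median of 621 nucleotides for the large and 637 for the small.

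The difference between cell types was tested for each gene as the endothelial minus the pericyte log2 ratio at E13.5, over the 16920 genes with an adjusted p in both tables. Of 79 ribosomal protein genes 51 passed and all 51 were higher in the endothelial comparison, where 2.95% of all genes passed in that direction and 3.94% in either. The difference was above 0 for all 79 genes and its median was 0.57. With the summed means set equal 33 passed, and with the spread of each table rescaled 4 passed, among 15 genes in all. By subunit 31 of 48 large and 20 of 31 small subunit genes passed. Rps15a differed by 0.92 (SE 0.14), Rplp1 by 0.96 (SE 0.15), Rpl39 by 1.20 (SE 0.20) and Rplp2 by 0.88 (SE 0.15), with Benjamini-Hochberg adjusted p from 1.1e-07 to 1.1e-05 in this difference fitted across all genes. These 4 had pericyte log2 ratios between -0.16 and -0.05. Controls and mutants of the pericyte table may differ in sex, as given above.

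Between the pericyte stages, E13.5 minus E11.5, 0 of 80 ribosomal protein genes differed by this test and 0 had an unadjusted p under 0.05, where 1.43% of 18267 genes passed, 1.35% with a positive difference, and 13.3% had such a p. The median difference was -0.10. The smallest p belonged to Rpl3 (difference -0.37, SE 0.21, adjusted p = 0.45 over all genes in this difference test), followed by Rpl7a, Rps6 and Rps2, with differences of -0.24, -0.24 and -0.24.

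**Figure D3:**
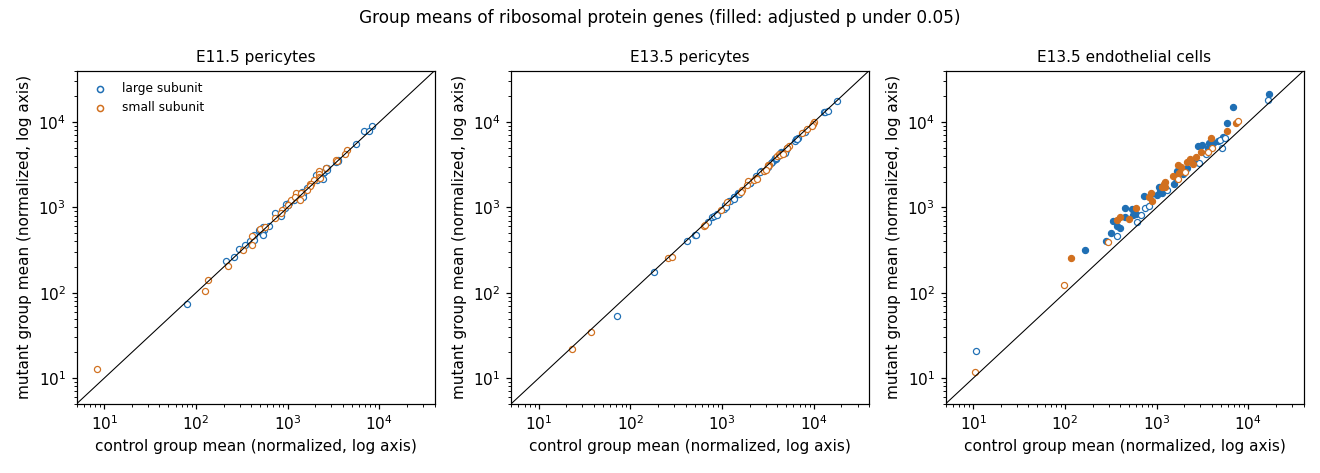
Group means of normalized reads of the ribosomal protein genes are plotted for controls (x axis) and mutants (y axis) on log axes, in 1 panel per cell type and stage, with the line of equal means. The points follow the line in both pericyte panels, and in the endothelial panel 80 of 81 genes lie above it, Rpl3 being the exception.

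The levels span 3 orders of magnitude, as the plot of control against mutant means shows. Per kilobase of the median annotated transcript, the control level in endothelial cells was highest for Rplp0 (21580), Rpl4 (19082) and Rpl41 (12481). In E11.5 pericytes the same 3 genes led, with Rpl41 at 14077, Rpl4 at 9667 and Rplp0 at 8873 per kilobase, and in E13.5 pericytes Rpl41 stood at 24249, Rplp0 at 22924 and Rpl4 at 16596. No spread over samples could be given for these levels, so neighbours in the order cannot be separated. The lowest levels per kilobase in endothelial cells were those of Rpl39l (16), Rps21 (25.2), Rps12 (198.7) and Rps29 (274).

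Of the leading endothelial genes Rplp0, a stalk protein used widely as a reference gene, had means of 16703 and 21658 per the authors' deposited table (log2 ratio 0.37, SE 0.13, adjusted p = 0.048). With the summed means set equal, where 41 genes passed in place of 60, that call was among those lost (adjusted p = 0.19). Others lost included those of Rpl6 (0.12) and Rpl6l (0.13). Rpl4, which reaches into the exit tunnel, had means of 16334 and 18147 per the authors' deposited table (log2 ratio 0.15, SE 0.09, adjusted p = 0.36). Of the 3 genes with the highest level per kilobase, Rpl41 alone had a log2 ratio above the median of 0.52.

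The order of control levels was most alike in E11.5 pericytes and endothelial cells, with a Spearman rho of 0.98 over 80 genes. It was 0.87 between the pericyte stages over 80 genes and 0.87 between E13.5 pericytes and endothelial cells over 81. The 3 tables were made separately and their scales may differ, so these are descriptions, with genes that share libraries and lengths. Some genes took very different shares of the summed ribosomal protein level in control cells, and they were picked after their values were seen. Rpl35 made up 1.86% of it in E11.5 pericytes, 0.507% in E13.5 pericytes and 1.62% in endothelial cells. Rps27l made up 0.548%, 0.0882% and 0.433%, and Rps29 0.101%, 0.0127% and 0.0611%. Rpsa, the laminin receptor protein of the small subunit, went the other way, with 1.34%, 3.33% and 1.32%. In each of these genes the E13.5 pericyte table stood apart from the other two.

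Transcript length ran with the endothelial ratio. Over the 79 tested genes the log2 ratio had a Spearman rho of -0.63 with the median length of the annotated transcripts, and -0.64 in each subunit (48 large and 31 small). With the control mean it was -0.36. Over 7125 other protein-coding genes of similar level the rho with length was -0.31. In pericytes the rho over ribosomal protein genes was 0.16 at E11.5 (80 genes) and 0.12 at E13.5 (81 genes). These are correlations across genes of the same libraries and carry no test.

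**Figure D4:**
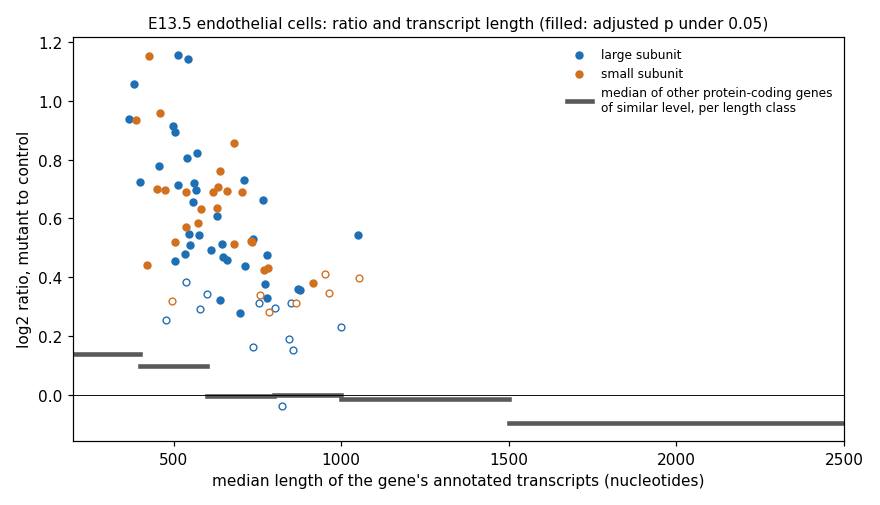
The log2 ratio of mutant to control in E13.5 endothelial cells (y axis) is plotted against the median length of a gene's annotated transcripts in nucleotides (x axis) for the ribosomal protein genes, filled where the adjusted p was under 0.05. Grey lines are the medians of other protein-coding genes of similar level in each length class, and all but 1 of the 79 points lie above 0.

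Within classes of median transcript length the ribosomal protein genes had higher medians than other protein-coding genes, as the plot of ratio against length shows. This measure of length was added after the data were seen, and lengths within a class were similar, not equal. From 400 to 600 nucleotides 26 of 31 ribosomal protein genes and 65 of 418 other genes of similar level passed as higher, with median log2 ratios of 0.66 and 0.10. Between 600 and 800 nucleotides it was 26 of 30 and 64 of 1395, with medians of 0.50 and -0.01. In both sets the median was lower in the longer of these 2 classes. From 800 to 1000 nucleotides 3 of 11 ribosomal protein genes and 22 of 907 others passed as higher, with medians of 0.31 and 0.00. Between 1000 and 1500 nucleotides it was 1 of 3 and 32 of 1074, with medians of 0.40 and -0.02. Below 400 nucleotides the 4 ribosomal protein genes reached a median of 0.94 and the 20 others 0.14, both on few genes. Other genes of 2500 nucleotides or more had a median of -0.18.

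A wider comparison took every other gene whose longest transcript (607 to 2664 nucleotides) and control mean (370 to 5341) fell within the 10th to 90th percentile of the ribosomal protein genes. Of 2707 such genes 194 were higher and 6 lower, 7.39% in all, with a median log2 ratio of 0.09. In the same window 40 of 52 ribosomal protein genes were higher, with a median of 0.51. The window held 576 pseudogenes, many of which share sequence with ribosomal protein genes. With only protein-coding genes without a ribosomal protein symbol, 153 of 2087 were higher, with a median of 0.10. Where the mean transcript length set the window, 171 of 1553 other genes were higher and 11.1% passed in either direction. Among protein-coding genes alone it was 109 of 1130, with a median of 0.15, and 125 of 2178 with the median length, with a median of 0.01. With the mean length and the 25th to 75th percentile, 63 of 464 other genes were higher (13.6%), with a median of 0.20. In that window 17 of 22 ribosomal protein genes were higher, with a median of 0.47.

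Several ribosomal protein genes have near-identical copies, and the counting step was not given, so reads may be split between them and single values are uncertain. Rps27l, a copy of Rps27 that p53 can induce, had endothelial means of 824 and 1337 per the authors' deposited table (log2 ratio 0.70, SE 0.21, adjusted p = 0.015). Rps27 itself had 395 and 767 (log2 ratio 0.96, SE 0.20, adjusted p = 0.00015) per the authors' deposited table. The copy thus stood at 2.09 times Rps27 in control and 1.74 times in mutant endothelial cells, and at 2.23 times in E11.5 and 0.907 times in E13.5 control pericytes.

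Rpl32l had means of 1052 and 1737 in endothelial cells per the authors' deposited table (log2 ratio 0.72, SE 0.13, adjusted p = 1.1e-05). Its parent Rpl32 had 5886 and 9773 (log2 ratio 0.73, SE 0.14, adjusted p = 3.6e-05) per the authors' deposited table. Pseudogene and parent thus had nearly equal ratios. Rpl6l and Rpl6 had log2 ratios of 0.36 (SE 0.11) and 0.32 (SE 0.09) per the authors' deposited table, with adjusted p of 0.016 and 0.0066. Rps4l and Rps4x had 0.31 (SE 0.18) and 0.28 (SE 0.11), where the adjusted p were 0.33 and 0.085 per the authors' deposited table. Rpl39l, a copy best known from the testis, stood at 0.0242 times Rpl39 in control and 0.0206 times in mutant endothelial cells.

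Annotated copies that carry a parent's symbol with the ending -ps repeated the pattern: 110 of 175 tested in endothelial cells were higher, with a median log2 ratio of 0.60. In pericytes 0 of 179 passed at E11.5, with 2 at an unadjusted p under 0.05, and 0 of 192 at E13.5, with 0 at such a p, in the authors' DESeq2 fits. Over all tested genes 17.7% had such a p at E11.5 and 4.06% at E13.5. The copies share sequence with the parent genes and are no separate evidence. Of 10 ribosomal protein genes, copies and relatives that the symbol rule misses, of which Rps3a2 and Rps3a3 are annotated as pseudogenes, 5 were higher in endothelial cells, among them Fau, Rpl36al, Rpl22l1 and Rps27rt. Fau encodes a ribosomal protein fused to a ubiquitin-like protein, and its log2 ratio was 0.78 (SE 0.12, adjusted p = 2.5e-07) per the authors' deposited table. Rack1, a scaffold on the head of the small subunit, had 0.25 (SE 0.10, adjusted p = 0.13), and Rpl7l1, an assembly factor related to Rpl7, had -0.02 (SE 0.11, adjusted p = 0.96) per the authors' deposited table.

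**Figure D5:**
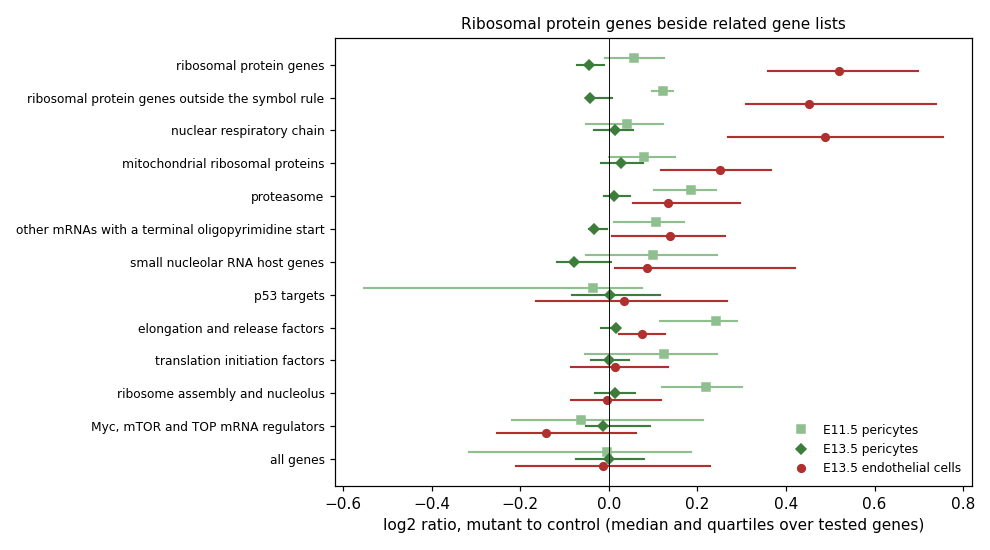
Medians (symbols) and quartiles (lines) of the log2 ratio of mutant to control are plotted for the ribosomal protein genes, related gene lists and all tested genes, in each cell type and stage. In E13.5 endothelial cells the ribosomal protein genes, at 0.52, and the nuclear genes of the respiratory chain, at 0.49, have the highest medians.

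The other genes of protein synthesis had medians nearer to 0 in endothelial cells, as the plot of related gene lists shows, and their counts are to be read beside the 5.11% of all tested genes that passed as higher and the 2.19% that passed as lower. Of 63 translation initiation factors 0 were higher and 2 lower, with a median log2 ratio of 0.01. Those lower were Eif2s3x, an X-linked subunit of the factor that delivers the initiator tRNA (log2 ratio -0.46, SE 0.13, adjusted p = 0.0096), and Eif4g2 (-0.26, SE 0.08, adjusted p = 0.02), per the authors' deposited table. Of 11 elongation and release factors 0 passed in the authors' DESeq2 fit, with 1 at an unadjusted p under 0.05 and a median of 0.07. Over all tested genes 20% had such a p in endothelial cells. Of 56 genes of ribosome assembly and the nucleolus 1 was higher, Nop10, a protein of the box H/ACA particles (log2 ratio 0.57, SE 0.16, adjusted p = 0.01), and 1 lower, Polr1b, a core subunit of RNA polymerase I (-0.46, SE 0.14, adjusted p = 0.024), per the authors' deposited table. The median of these 56 was 0.00.

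Among 20 other messenger RNAs with a TOP start 2 were higher, among them Fau, with a median of 0.14. The 25 genes of Myc, mTOR and TOP regulation had 0 calls in the authors' DESeq2 fit and a median of -0.14. Of these 25, 6 had an unadjusted p under 0.05, where 20% of all tested genes did. Of 18 host genes of small nucleolar RNAs 2 were higher, Snhg3 (log2 ratio 0.83, SE 0.18, adjusted p = 0.00044) and Zfas1 (0.52, SE 0.17, adjusted p = 0.041), per the authors' deposited table. Of 20 p53 targets 1 was higher, a share (5%) near the 5.11% of all tested genes, namely Gdf15, a stress-induced secreted factor, with means of 23.3 and 84.8 per the authors' deposited table (log2 ratio 1.86, SE 0.55, adjusted p = 0.015).

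Mitochondrial ribosomal proteins passed as higher in 9 of 78 genes, with a median log2 ratio of 0.25. Mrpl57, Mrpl33 and Mrpl14 had the smallest p among them, with log2 ratios of 0.54, 0.77 and 0.66 per the authors' deposited table. Nuclear genes of the respiratory chain passed as higher in 42 of 101, with a median of 0.49, which lay close to that of the ribosomal protein genes. This list was formed by symbol and also takes copies with the ending -ps. Among these, Ndufb1-ps and Atp5k-ps2 passed, with log2 ratios of 1.04 and 1.28 per the authors' deposited table. Ndufa6, a subunit of complex I, had means of 1222 and 2093 (log2 ratio 0.78, SE 0.14, adjusted p = 1.5e-05) per the authors' deposited table. Of 43 tested proteasome genes 3 were higher, Psmb10 and Psmb9 of the immunoproteasome and Psma2, with a median of 0.13, and that share (6.98%) also lay near the 5.11% over all genes.

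In E11.5 pericytes the assembly and nucleolus genes had a median of 0.22 on the log2 scale, with 0 of 56 passing in the authors' DESeq2 fit. Of these 56, 9 had an unadjusted p under 0.05, where 17.7% of all tested genes did. The Myc, mTOR and TOP list had a median of -0.06 and 2 higher genes there, Lin28a and Lin28b, which encode RNA-binding proteins that block let-7 maturation. The median of the ribosomal protein genes, 0.06, lay between those of these lists. In E13.5 pericytes 0 genes of the assembly (56), initiation (63) or elongation (11) lists passed in the authors' DESeq2 fit. An unadjusted p under 0.05 was found for 3, 1 and 0 of them, and for 4.06% of all tested genes.

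Likeness to the ribosomal protein genes was measured as the distance between a gene's 3 log2 ratios and the 3 medians of the set, over 8738 other genes above the median level in each table. Of the 10 nearest, 8 were annotated as pseudogenes, the nearest being Gm15421. The nearest protein-coding gene was Tbca, a chaperone of beta-tubulin folding, with log2 ratios of 0.07, -0.06 and 0.51 in E11.5 pericytes, E13.5 pericytes and endothelial cells, at a distance of 0.025. Its median transcript length of 528 nucleotides lies within the range of the ribosomal protein genes.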

How the data were processed

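Libraries came from messenger RNA of sorted cells made with a KAPA kit, per the labels' protocols. Partek, Bowtie2 and DESeq2 are named with build mm10, without versions, per the submitters' processing notes, and the annotation, the counting step and the model formula are not given in the sources used here. Per the file headers, the authors deposited for each gene the least-squares mean of either group, their ratio (mutant over control), the same as a signed fold, a p-value and its step-up FDR. The authors' means are taken as signal on the scale of normalized reads, whose depth per library is unknown. The authors' FDR is printed as the adjusted p, taken as an adjusted p from DESeq2. The planned tests on values per library were replaced by the authors' values, as the plan foresaw.

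The SE of a log2 ratio is the ratio divided by the normal deviate of the authors' p. Differences between tables were tested by dividing the difference of the log2 ratios by the square root of the 2 squared SE added, adjusted by Benjamini-Hochberg over all genes in both tables. The steps were tested on simulated data. The labels do not say whether samples came from separate litters, so a p-value reflects only the spread among the samples sequenced.

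Members, gene lists and tests were chosen with earlier results of these data known, so none of them is independent support. Genes named are, per table, the 3 highest and 3 lowest control means, the 5 smallest p among called genes, the highest and lowest ratio of each subunit, the 4 smallest p of each difference, paralogues with their parents, genes with no adjusted p, ribosomal protein genes outside the symbol rule, and up to 3 called genes of each related list. Genes given by role, those outside the threshold, those whose control shares are given and Xist were named after their values were seen, and not every gene of the rule is reported here. Transcript lengths and positions come from GENCODE's annotation of GRCm38, in which all 81 genes were found. Steps used scipy 1.17.1, pandas 2.3.3 and numpy 2.4.6 under Python 3.11.15, with figures by matplotlib 3.10.9.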

Additional observations from a re-analysis of the deposited data

Results flagged for a closer look

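The endothelial and pericyte log2 ratios at E13.5 differed by a test of the difference itself, with Benjamini-Hochberg adjustment over all 16920 genes, for 51 of 79 ribosomal protein genes. The differences with the smallest p were those of Rps15a (0.92), Rplp1 (0.96), Rpl39 (1.20) and Rplp2 (0.88), endothelial minus pericyte on the log2 scale. The summed level of the red cell markers in the endothelial table and Xist in the pericyte table also differed between mutants and controls. In E13.5 pericytes the red cell markers summed to 1804 in controls and 3429 in mutants. Of 9 tested there 8 had a log2 ratio above 0 and 0 passed. The part of red cells and of sex in these differences between endothelial cells and pericytes was not tested.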

How the results depend on the processing

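The alternatives were a threshold of 0.1, no filter on low genes, summed means of both groups set equal, the median of all genes set to 0, no paralogues ending in l, a pseudocount of 1 and other windows of length and level. Added after the data were seen were the rescaled spread, summed means without red cell markers, no pseudogene members, the median transcript length and protein-coding genes alone. In endothelial cells 7 ribosomal protein genes passed with the rescaled spread in place of 60, and between 41 and 65 passed in the other settings. The difference between endothelial cells and pericytes passed for 33 genes with summed means set equal and for 4 with the rescaled spread in place of 51. Other genes of similar length and level passed in 11.1% with the mean transcript length in place of 7.39%. The other 48 values of main results kept their direction and stayed within 1.5 times the count or within the median SE. With summed means set equal, the log2 ratios of Rpl32l (0.017) and Rps27l (0.018) in E13.5 pericytes and of Rpl41 (-0.00092) and Rps27l (-0.021) in E11.5 pericytes changed sign, and none of these passes a test. The cause of these changes was not tested beyond the construction of each setting. No paired analysis was possible because the tables hold no values per library. For the same reason leaving out single samples, a replicate block and count tests in edgeR or DESeq2 were not run. The SE implied by the authors' p, and not depth, sets the precision given here.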
